A study of Mus musculus with 9 samples.

Results

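Livers of hypothyroid mice given 3,5,3'-triiodothyronine (T3) were compared to livers of untreated mice, to ask which genes T3 brought back to the control level, which it carried beyond that level and which stayed away from it. The members of the comparison were chosen by label, as the 3 MMI+T3 libraries and the 3 CT libraries, which made 6 of the 9 libraries of the series. The remaining 3, labelled MMI, came from hypothyroid mice without T3 and are given beside the 6 where they show from where T3 started. All mice were male C57BL/6. MMI and MMI+T3 mice drank water with 0.1% methimazole, a drug that blocks thyroid hormone synthesis, for 20 days, and per the study's methods also sodium perchlorate. MMI+T3 mice also had 5 daily T3 injections and were killed 24 hours after the last. CT mice were untreated, so they had received neither the drugs nor injections, and were about 8 to 12 weeks old. The labels stated no age for the other groups, while the study's methods give about 8 to 12 weeks for the mice used.

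Polyadenylated liver RNA was sequenced in pairs, and the reads were counted per gene. CT libraries held 19662770 to 22148995 counts and MMI+T3 libraries 19111975 to 20435768. The CT counts were deposited in a table of their own, so unequal handling or counting of the tables would look like a group difference and the 2 cannot be told apart, here or in any result that follows. Mitochondrially encoded genes took 3.34 to 3.76% of the counts in these 6 libraries. Albumin (*Alb*), the defining hepatocyte transcript, made up 2.21 to 2.36% of a CT library and 1.17 to 1.30% of an MMI+T3 library, and of 13 hepatocyte markers 9 were level with CT and 4 lower. Replicates were labelled as separate samples, but nothing said that each came from its own mouse, so the spread may be technical in part.

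Thyroid hormone acts in the liver mainly through the nuclear receptor TRβ, which sits on DNA with the retinoid X receptor and, with hormone bound, exchanges corepressors for coactivators. It is known for inducing its own deiodinase, enzymes of fatty acid synthesis and of cholesterol turnover, and for acting on growth hormone signalling, on which the sex-biased liver genes depend. Hypothyroidism followed by T3 is a common way to expose the response, since the starting level of hormone is low.

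Of 17154 genes in both tables, 13847 passed the filter on low counts. In MMI+T3, 1846 genes were higher than in CT (13.3%) and 1702 were lower (12.3%), 3548 in all (25.6%, edgeR adjusted p under 0.05, 3 libraries in each group). A further 5603 genes (40.5%) were level with CT, which here means that they were not called and that the whole 95% interval of the difference lay within 1.5-fold either way. Such an interval can still lie wholly above or wholly below CT, so level does not mean equal. The other 4696 were neither called nor held to that range and are named undetermined. The CPM of the groups did not overlap at 5845 genes (42.2%). Differences of 4-fold or more were found at 257 higher and 137 lower genes, and at 687 higher and 465 lower genes the whole interval lay beyond 1.5-fold. Below, CPM are counts scaled to a common library size by TMM, and a log2 difference is MMI+T3 minus CT with its standard error (SE).

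The deiodinase gene *Dio1*, whose enzyme converts thyroxine to T3 and is the classic liver readout of the hormone, went far beyond CT. It stood at 44.1, 80.6 and 59.2 CPM in CT, 4.67, 3.13 and 3.88 CPM in MMI and 868, 858 and 947 CPM in MMI+T3. No library of any group overlapped with another group, the log2 difference was 3.85 ± 0.20 (adjusted p = 6.96e-07), and the level was 14.4-fold that of CT. *Serpina7*, which encodes thyroxine-binding globulin, went beyond CT in the other direction. Its level was 23.3, 25.1 and 19.4 CPM in CT, 126, 152 and 130.2 CPM in MMI and 0.314, 0.389 and 0.535 CPM in MMI+T3, a log2 difference of -5.76 ± 0.22 (adjusted p = 8.35e-08). *Slco1a1*, an organic anion transporter, is an example of a gene that did not come back. It stood at 498, 624 and 581 CPM in CT, 102, 17.4 and 60.4 CPM in MMI and 68.9, 105 and 19.8 CPM in MMI+T3, and the log2 difference to CT was -3.15 ± 0.45 (adjusted p = 6.00e-04).

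The sequences before the starts of these 3 genes are shown because they stand for the 3 outcomes, going above CT, going below CT and staying below CT. Each is the 250 bases before the RefSeq gene start (GRCm38.p6), with capitals for the nuclear receptor half-site AGGTCA on either strand, read as AGGTCA or TGACCT.
Dio1 (chr4:107307169-107307418, strand -): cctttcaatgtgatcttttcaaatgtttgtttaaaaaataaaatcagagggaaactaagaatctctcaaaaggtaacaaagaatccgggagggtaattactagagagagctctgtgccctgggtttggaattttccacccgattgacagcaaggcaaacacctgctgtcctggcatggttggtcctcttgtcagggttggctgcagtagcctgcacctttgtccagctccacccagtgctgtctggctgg
Serpina7 (chrX:139085237-139085486, strand -): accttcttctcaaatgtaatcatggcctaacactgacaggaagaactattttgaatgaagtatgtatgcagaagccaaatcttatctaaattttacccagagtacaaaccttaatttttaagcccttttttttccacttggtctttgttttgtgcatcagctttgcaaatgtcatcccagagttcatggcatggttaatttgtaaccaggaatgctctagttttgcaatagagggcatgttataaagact
Slco1a1 (chr6:141946963-141947212, strand -): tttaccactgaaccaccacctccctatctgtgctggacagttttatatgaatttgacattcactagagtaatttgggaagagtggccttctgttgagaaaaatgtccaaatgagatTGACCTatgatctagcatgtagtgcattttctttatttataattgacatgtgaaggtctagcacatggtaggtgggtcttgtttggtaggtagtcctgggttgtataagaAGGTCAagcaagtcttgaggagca
The half-site was found in none of these windows but that of *Slco1a1*, which held it at 134 bases and 24 bases before the start. Over all 27025 RefSeq windows of this length it was present in 13.8%. Among genes matched by symbol it was present before 187 of 1434 genes that were higher in MMI+T3 than in CT (13.04%), 151 of 1274 that were lower (11.9%) and 470 of 4487 that were level (10.5%). A match is only a string of letters in a short window, and binding was not measured.

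**Figure D1:**
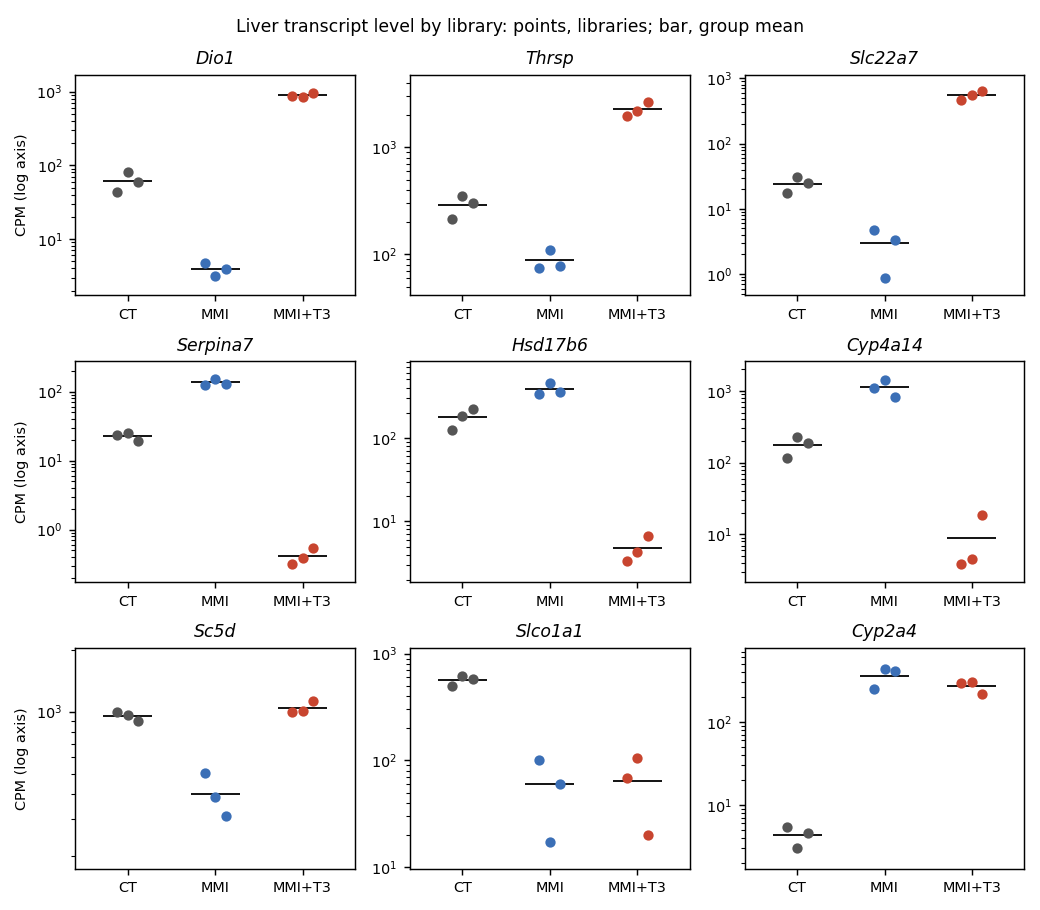
CPM (log axis) of 9 genes in every library of the 3 groups, with points for libraries and a bar for the group mean. *Dio1*, *Thrsp* and *Slc22a7* lay above CT in all MMI+T3 libraries, *Serpina7*, *Hsd17b6* and *Cyp4a14* below, *Sc5d* was back near CT, and *Slco1a1* and *Cyp2a4* stayed near the MMI libraries.

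Genes known to respond to thyroid hormone in liver were above CT at 10 of 24 tested, beside 13.3% of all genes, with 2 lower, 4 level and 8 undetermined, and a median log2 difference of 0.39 against 0.01 over all genes. *Thrsp*, the Spot 14 gene of lipid synthesis, stood at 214, 352 and 304 CPM in CT, 75.0, 110.2 and 77.8 CPM in MMI and 1971, 2194 and 2662 CPM in MMI+T3. The log2 difference to CT was 2.96 ± 0.19 (adjusted p = 2.89e-06), and the MMI, CT and MMI+T3 libraries were in that order without overlap. *Me1*, malic enzyme, was 186, 222 and 199 CPM in the CT libraries and 1230.2, 1745 and 1761 CPM in the MMI+T3 libraries, a log2 difference of 2.95 ± 0.15 (adjusted p = 7.62e-07). All MMI+T3 libraries of both genes were above every CT library. *Bcl3*, an NF-κB cofactor, had a log2 difference of 1.94 ± 0.09 (adjusted p = 4.49e-07) and *Idh3a*, a subunit of isocitrate dehydrogenase, one of 1.72 ± 0.09 (adjusted p = 5.63e-07). Higher levels were also found for *Hr*, a corepressor (3.71 ± 0.28), *Ucp2*, an uncoupling protein (2.03 ± 0.11), and *Gpd2*, the mitochondrial glycerol phosphate dehydrogenase (1.73 ± 0.13). Not every responsive gene did so. *Klf9*, a transcription factor with a known response element, was level with CT (-0.17 ± 0.12, 95% interval -0.43 to 0.08), as were *Strn3*, *Tbl1x* and *Aldh1a7*, while *Adssl1* (-0.82 ± 0.13) and *Cpt1a* (-0.69 ± 0.14) were lower.

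A separate list held genes of hormone metabolism and transport with receptors and coregulators, *Dio1* and *Serpina7* included. Of 17 tested, 2 were higher, 6 lower and 8 level. The receptor gene *Thra* was level with CT (-0.09 ± 0.13), and so were its partner *Rxra* and the coregulators *Ncor1*, *Ncoa1* and *Med1*. *Thrb*, the main liver receptor, was lower at 50.7, 46.5 and 54.5 CPM in the CT libraries and 36.3, 41.7 and 33.8 CPM in the MMI+T3 libraries (-0.45 ± 0.11, adjusted p = 0.0127), a call that was lost without CT replicate 3 (adjusted p = 0.0508). Of the plasma carriers of the hormone, *Ttr*, transthyretin, had a log2 difference of -0.68 ± 0.10 (adjusted p = 9.19e-04) beside the much larger one of *Serpina7*.

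To place T3 relative to hypothyroidism, the genes that differed between MMI and CT were sorted by their level in MMI+T3. MMI against CT called 736 of 13925 genes, and MMI+T3 against CT called 3548 of 13847. Most genes called with T3 were therefore not called in MMI and are outside this sorting, though they need not have been level in MMI. Both contrasts used the same CT libraries, so a chance deviation of CT enters both, and the counts are a description. Of 390 genes lower in MMI than in CT, 125 were higher than CT in MMI+T3, 86 were level, 103 were still lower and 76 were undetermined. Of 325 genes higher in MMI, 37 were lower than CT in MMI+T3, 38 were level, 160 were still higher and 90 were undetermined. Among the 160 still higher, 20 had moved back toward CT and 9 further away when MMI+T3 was tested against MMI. Among the 103 still lower, 5 had moved back and 16 further away. When MMI replicate 3, the library with the highest mitochondrial share (4.99%), was left out of the MMI contrast, a choice made after seeing the data, the 323 higher genes split into 58 lower than CT, 60 level and 139 still higher. The 441 lower genes split into 146 higher, 101 level and 124 still lower.

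Among genes that fell in hypothyroidism and went past CT with T3, *Slc22a7*, which encodes the organic anion transporter OAT2, stood at 17.3, 30.4 and 25.0 CPM in CT, 4.67, 0.858 and 3.36 CPM in MMI and 468, 563 and 635 CPM in MMI+T3, a log2 difference to CT of 4.51 ± 0.21 (adjusted p = 3.17e-07). *Sult5a1*, a sulfotransferase, was 9.69, 18.6 and 22.7 CPM in the CT libraries and 122, 116 and 119.9 CPM in the MMI+T3 libraries (2.81 ± 0.24, adjusted p = 1.91e-05). Both were low in every MMI library and, with T3, above every CT library. *Ces4a*, a carboxylesterase, had a wide spread, with 1.54, 2.25 and 3.098 CPM in CT, 0.091, 0.343 and 0.262 CPM in MMI and 90.0, 69.0 and 11.9 CPM in MMI+T3, so MMI+T3 replicate 3 was far below the other two while still above CT (4.62 ± 0.65, adjusted p = 5.84e-04). *H2-Q1* (2.63 ± 0.19), *Slc34a2* (2.07 ± 0.31), a phosphate cotransporter, and *Tmem28* (2.70 ± 0.32) followed the same course.

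Genes that rose in hypothyroidism and ended below CT included several of fatty acid handling. *Cyp4a14*, a fatty acid ω-hydroxylase, was 116, 229.7 and 188 CPM in CT, 1083, 1434 and 836 CPM in MMI and 3.92, 4.52 and 18.6 CPM in MMI+T3 (-4.30 ± 0.52, adjusted p = 2.01e-04), and the log2 difference was -5.41 without MMI+T3 replicate 3, the highest of them. *Hsd17b6*, an oxidoreductase of androgen and retinol metabolism, was 125, 183 and 219 CPM in CT, 335, 457 and 353 CPM in MMI and 3.40, 4.33 and 6.61 CPM in MMI+T3 (-5.20 ± 0.27, adjusted p = 7.47e-07). In both, the MMI+T3 libraries lay below all CT libraries. *Meg3*, an imprinted long noncoding RNA, had a log2 difference of -3.06 ± 0.21, *Serpinb1a*, a protease inhibitor, one of -2.17 ± 0.23, *Acot4*, a peroxisomal thioesterase, one of -1.08 ± 0.17, and *Pla2g12a*, a phospholipase, one of -1.66 ± 0.29.

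A further set was back near CT. *Sc5d*, lathosterol oxidase of cholesterol synthesis, was 996, 962 and 902 CPM in CT, 502, 386 and 311 CPM in MMI and 996, 1009 and 1128 CPM in MMI+T3, with a 95% interval of -0.10 to 0.34 for the log2 difference to CT. *Lgr5*, a receptor of pericentral hepatocytes, was 6.67 CPM in MMI, 15.5 CPM in CT and 13.4 CPM in MMI+T3 on average (-0.51 to 0.07). *Bbc3*, the apoptosis gene PUMA, had an interval of -0.32 to 0.23 and *Slc41a2*, a magnesium transporter, one of -0.20 to 0.33. All of these had been low in MMI. From the other side came *Gsta2*, a glutathione transferase, with 89.2, 92.7 and 87.9 CPM in CT, 355, 495 and 369 CPM in MMI and 74.1, 87.4 and 129 CPM in MMI+T3 and an interval of -0.28 to 0.48. *Cd36*, a fatty acid carrier, returned from a mean of 190.0 CPM in MMI to 72.8 CPM, against 65.5 CPM in CT (-0.21 to 0.50). *Ephx1*, epoxide hydrolase (-0.44 to 0.04), was level too.

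The last set stayed on the side of MMI. MMI and MMI+T3 mice had methimazole and perchlorate and CT mice had neither. A response to the drugs thus cannot be told apart from a lasting effect of hypothyroidism. *Cyp2a4*, a steroid hydroxylase with a female bias, was 5.50, 3.07 and 4.65 CPM in CT, 248, 429 and 405 CPM in MMI and 291, 305 and 217 CPM in MMI+T3 and its log2 difference to CT was 5.92 ± 0.22 (adjusted p = 5.56e-08). *Cbr3*, a carbonyl reductase, was 1.58, 1.10 and 2.05 CPM in CT, 166, 287 and 289.8 CPM in MMI and 58.4, 57.5 and 75.4 CPM in MMI+T3 (5.31 ± 0.20, adjusted p = 7.11e-08), and the log2 difference of MMI+T3 to MMI was -1.98 (adjusted p = 1.49e-04), so it came down without reaching CT. *Abcc4*, an efflux transporter, was 5.08, 3.40 and 4.497 CPM in CT, 177, 392 and 275 CPM in MMI and 153, 117 and 179.6 CPM in MMI+T3 (5.10 ± 0.20, adjusted p = 8.66e-08). *Gstm3* (3.35 ± 0.22) had a log2 difference of 0.05 (adjusted p = 0.915) to MMI, with means of 133 CPM in CT, 1309 CPM in MMI and 1369.8 CPM after T3. Every MMI+T3 library of these genes lay above every CT library. On the low side, *Elovl3*, a fatty acid elongase, was 558, 532 and 706 CPM in CT, 136, 70.4 and 111 CPM in MMI and 148, 223 and 148 CPM in MMI+T3 (-1.80 ± 0.18, adjusted p = 4.84e-05). *Avpr1a*, the vasopressin receptor (-2.40 ± 0.17, adjusted p = 5.82e-06), *Egr1*, an immediate early transcription factor (-1.98 ± 0.31, adjusted p = 0.00113), and *Slc22a28*, an anion transporter (-3.68 ± 0.46, adjusted p = 2.47e-04, and -4.51 without MMI+T3 replicate 2), were also still below CT.

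**Figure D2:**
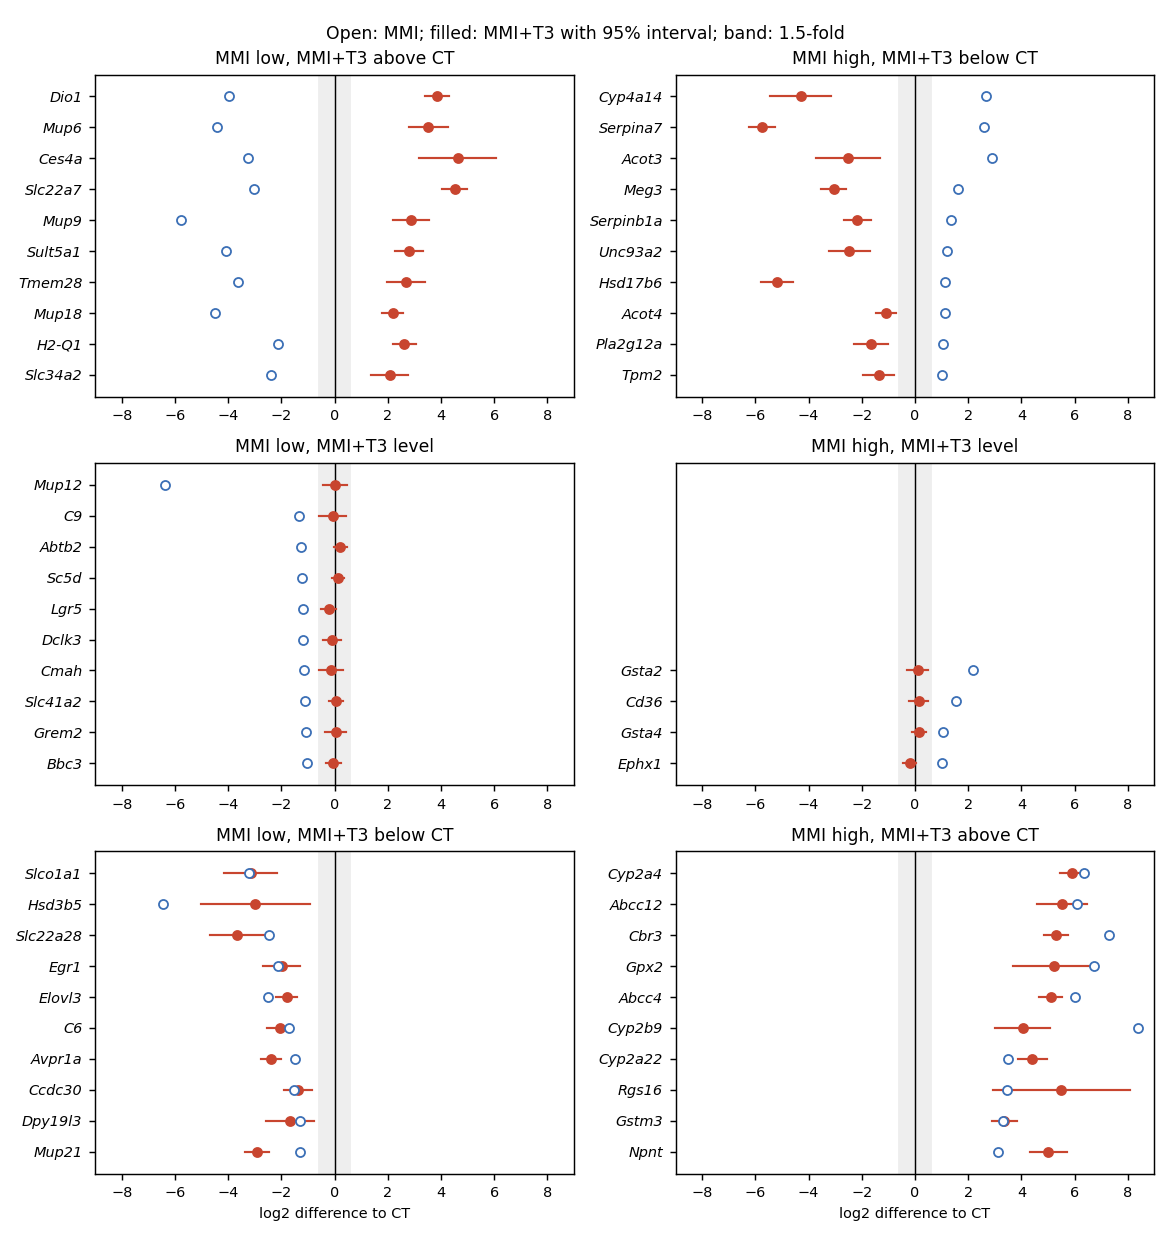
Log2 difference to CT of MMI (open points) and MMI+T3 (filled points, bars 95% intervals) for up to 10 genes of each outcome, in 6 panels. Genes were ranked by the absolute MMI difference in the middle row. In the top and bottom rows they were ranked by the smaller of the absolute MMI and MMI+T3 differences. Zero is CT and the shaded band is 1.5-fold. The filled points lie on the other side of zero from the open points in the top row, within the band in the middle row and on the same side in the bottom row.

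Major urinary proteins (Mup) are pheromone carriers made in male mouse liver under pulsatile growth hormone. Together the Mup genes made up 1.23 to 1.56% of CT counts, 0.270 to 0.425% of MMI counts and 1.52 to 2.35% of MMI+T3 counts. Single copies did not share one course. How reads shared by near-identical copies were counted is not known, so values of single copies are uncertain, and the family sum may be too. *Mup9* was 85.7, 148 and 193 CPM in CT, 2.99, 1.29 and 3.52 CPM in MMI and 1113, 1377 and 692 CPM in MMI+T3 (2.89 ± 0.31, adjusted p = 8.47e-05). *Mup17* was 1121, 1785 and 2141 CPM in the CT libraries and 5183, 6327 and 3987 CPM in the MMI+T3 libraries (1.61 ± 0.23, adjusted p = 6.09e-04). *Mup18* (2.18 ± 0.18), *Mup16* (1.96 ± 0.26), *Mup15* (1.45 ± 0.18), *Mup19* (1.18 ± 0.20) and *Mup11* (1.08 ± 0.23) were above CT as well. *Mup12* was level at 171, 217 and 184 CPM in CT, 4.17, 0.687 and 1.94 CPM in MMI and 203, 248 and 126 CPM in MMI+T3, with a 95% interval of -0.45 to 0.45. *Mup1* (-0.37 to 0.69) and *Mup7* (-0.86 to 0.04) had intervals too wide for either answer. *Mup20*, the pheromone darcin, was level in MMI+T3 (-0.53 to -0.05), with means of 1905 CPM in CT and 1512 CPM in MMI. Below CT were *Mup3* (-0.78 ± 0.17, adjusted p = 0.00798) and *Mup21*, which stood at 286, 412 and 423 CPM in CT, 199, 95.2 and 157 CPM in MMI and 47.6, 62.8 and 37.5 CPM in MMI+T3 (-2.93 ± 0.20, adjusted p = 5.40e-06).

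**Figure D3:**
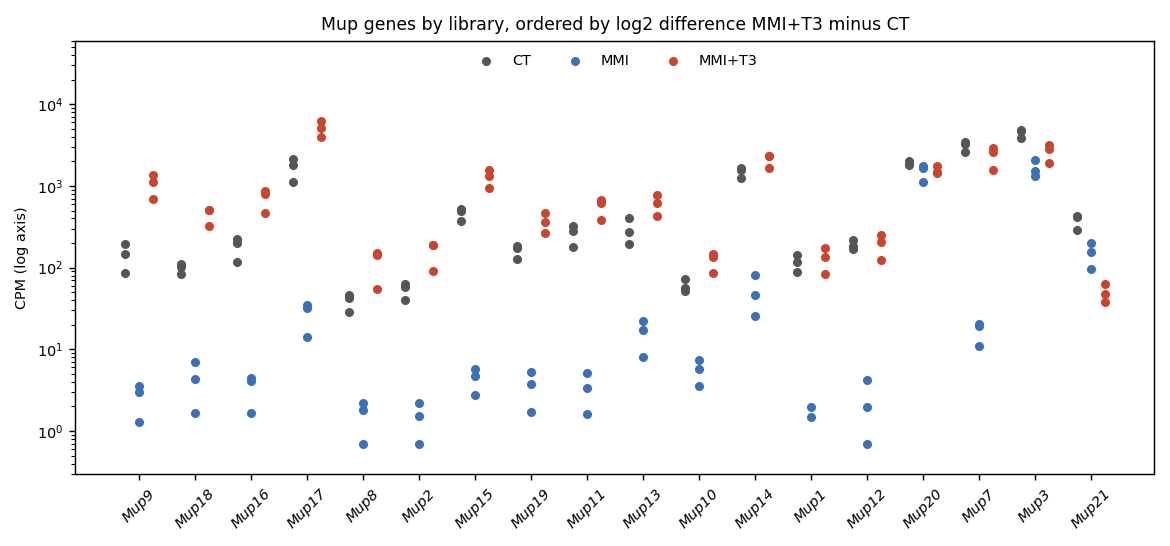
CPM (log axis) of the 18 Mup genes with at least 40 CPM in a library, with points for the CT, MMI and MMI+T3 libraries side by side and none for a library at 0. Most genes drop in MMI and return, some above CT (*Mup9*, *Mup18*), *Mup12* to the CT level, while *Mup3* and *Mup21* remain below CT.

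Male-biased genes as a whole were low in MMI and split with T3. Of 39 tested, 29 were lower in MMI than in CT and 0 higher (median -2.05). In that contrast 736 of 13925 genes over all were called either way. The median log2 difference of MMI+T3 to MMI was 2.31. In MMI+T3, 11 were higher than in CT and 12 lower, 4 level and 12 undetermined (median -0.21). Over all genes 13.3% were higher and 12.3% lower. Of the 11 higher genes, 9 were Mup genes. *Cyp4a12b*, an arachidonic acid hydroxylase, was 94.1, 157 and 133 CPM in CT, 104, 77.6 and 98.5 CPM in MMI and 9.56, 15.6 and 6.13 CPM in MMI+T3 (-3.62 ± 0.30, adjusted p = 1.66e-05), with MMI at -0.44 (adjusted p = 0.223) to CT on the log2 scale. *C6*, a complement component, was 255, 326 and 297 CPM in CT, 105, 47.7 and 114 CPM in MMI and 77.8, 89.0 and 44.9 CPM in MMI+T3 (-2.06 ± 0.21, adjusted p = 7.57e-05). Both were lower in every MMI+T3 library than in any CT library. *Cyp2u1*, a further fatty acid hydroxylase, had a log2 difference of -2.05 ± 0.19 (adjusted p = 3.57e-05), *Cyp4a12a* one of -1.78 ± 0.27 and *Susd4*, a complement regulator, one of -0.94 ± 0.18. *Hsd3b5*, a steroid reductase, was 199, 374 and 306 CPM in CT, 7.30, 0.3 and 2.31 CPM in MMI and 21.7, 90.1 and 0.729 CPM in MMI+T3, and its libraries spread so widely that the call (-2.97 ± 0.93, adjusted p = 0.0391) was lost without CT replicate 2, CT replicate 3 or MMI+T3 replicate 1 (adjusted p up to 0.105), and the log2 difference was -4.74 without MMI+T3 replicate 2. Undetermined were *Serpina1e* (-0.35 ± 0.24), an α1-antitrypsin, and *Selenbp2* (-0.39 ± 0.29), which both had been far lower in MMI. *C9* was level (-0.57 to 0.44).

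Female-biased genes were mostly above CT in these male livers. Of 28 tested, 15 were higher, 4 lower, 2 level and 7 undetermined, with a median log2 difference of 1.42. Over all genes 13.3% were higher and 12.3% lower. Without T3, 12 of 25 tested were already higher in MMI than in CT and 0 lower (median 1.07). In that contrast 736 of 13925 genes over all were called either way. The median log2 difference of MMI+T3 to MMI was 0.04, so much of the shift of the list was already there in MMI. The female-biased genes did not share a course either. *Cux2*, a repressor of male-biased genes found in female liver, was hardly counted without T3, with 7, 1 and 3 counts in CT and 9, 16 and 15 in MMI livers, against 1540, 1337 and 1835 in MMI+T3 (8.67 ± 0.27, adjusted p = 3.02e-08). With so few CT counts the size is uncertain, and it was 9.44 without CT replicate 1. *Cyp17a1*, a steroid hydroxylase and lyase, was 3.91, 3.13 and 3.40 CPM in CT, 2.36, 3.31 and 3.62 CPM in MMI and 155, 168 and 289.8 CPM in MMI+T3 (5.86 ± 0.27, adjusted p = 3.03e-07), again with MMI near CT. *Trim24*, a nuclear receptor coregulator (2.16 ± 0.20), *Cyp2c39* (3.06 ± 0.26) and *Ntrk2*, a neurotrophin receptor (3.63 ± 0.61, and 5.40 without CT replicate 1), followed that pattern. *Cyp2a4* and *Abcc4*, given above, were already high in MMI. *Cyp2b9* was 0.512, 0.384 and 0.5 CPM in CT, 142, 263 and 68.5 CPM in MMI and 7.21, 12.6 and 3.79 CPM in MMI+T3 (4.04 ± 0.47, adjusted p = 1.59e-04), so the MMI+T3 libraries lay between the other two groups. *Acot3* (-2.52 ± 0.54) and *Acot4* went below CT.

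In the growth hormone axis 6 of 20 genes were higher and 2 lower, 4 without MMI+T3 replicate 1. Over all genes 13.3% were higher and 12.3% lower. *Ghr*, the receptor, was lower at 704, 757 and 797 CPM in the CT libraries and 388, 425 and 335 CPM in the MMI+T3 libraries (-0.99 ± 0.11, adjusted p = 1.22e-04) and *Igfbp2*, an IGF carrier, was lower too (-1.17 ± 0.11, adjusted p = 2.92e-05). Both were also low in MMI, with means of 485 and 401 CPM. *Igf1*, the main target of growth hormone in liver, was level with CT at 486, 533 and 623 CPM in the CT libraries and 658, 628 and 486 CPM in the MMI+T3 libraries (95% interval -0.20 to 0.40). The signal transducers *Stat5a* (1.31 ± 0.10, adjusted p = 7.98e-06) and *Stat5b* (0.63 ± 0.10, adjusted p = 9.51e-04) were higher, *Jak2* was level, and the feedback inhibitors *Socs2* (1.18 ± 0.43) and *Cish* (1.37 ± 0.79) were undetermined.

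Bile acids are made from cholesterol by a classic route that *Cyp7a1* opens and an alternative route through *Cyp27a1* and *Cyp7b1*, and *Cyp8b1* sets the 12α-hydroxylated share. Of 18 genes, 5 were higher than in CT and 9 lower. The higher ones were all cytochrome P450 hydroxylases. *Cyp7a1* was 118, 111 and 85.3 CPM in CT, 40.4, 25.7 and 45.5 CPM in MMI and 253, 254 and 293 CPM in MMI+T3 (1.34 ± 0.13, adjusted p = 5.09e-05). *Cyp2c70*, which makes the 6-hydroxylated muricholic acids of the mouse, was 515, 780.3 and 701 CPM in the CT libraries and 2025, 1918 and 1765 CPM in the MMI+T3 libraries (1.51 ± 0.15, adjusted p = 4.72e-05). *Cyp39a1*, an oxysterol hydroxylase (2.08 ± 0.23, adjusted p = 1.25e-04), and *Cyp27a1* (0.51 ± 0.11, adjusted p = 0.00736) were higher in all MMI+T3 libraries than in any CT library. *Cyp7b1* was 190.3, 275 and 282 CPM in the CT libraries and 482, 579 and 268 CPM in the MMI+T3 libraries (0.82 ± 0.25, adjusted p = 0.0333), and its call was lost without CT replicate 1, CT replicate 2, CT replicate 3, MMI+T3 replicate 1 or MMI+T3 replicate 2 (adjusted p up to 0.11). *Cyp8b1* was 499, 447 and 494 CPM in CT, 544, 373 and 465 CPM in MMI and 158, 224 and 284 CPM in MMI+T3 (-1.12 ± 0.18, adjusted p = 0.00121), with MMI libraries that overlapped with CT and MMI+T3 libraries below both. Most other lower genes act in side chain shortening and conjugation, among them *Slc27a2* (-1.08 ± 0.13), *Scp2* (-0.90 ± 0.15), *Hsd17b4* (-0.67 ± 0.09), *Acox2* (-0.61 ± 0.09) and *Amacr* (-0.62 ± 0.11).

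Transport and signalling of bile acids differed by member, with 4 of 19 higher, 6 lower and 9 level. Over all genes 13.3% were higher, 12.3% lower and 40.5% level. The export pump *Abcb11* (0.05 to 0.47), the uptake carrier *Slc10a1* (-0.58 to -0.06), the receptor *Nr1h4* (FXR, -0.39 to 0.06) and *Fgfr4* with *Klb* were level. *Abcc3*, a basolateral exporter, was 535, 514 and 496 CPM in CT, 747, 926 and 738 CPM in MMI and 120.3, 89.5 and 155 CPM in MMI+T3 (-2.09 ± 0.17, adjusted p = 1.71e-05). *Nr0b2*, the repressor SHP, was lower (-1.21 ± 0.13, adjusted p = 7.57e-05), as were the uptake carriers *Slco1b2* (-0.87 ± 0.12) and *Slco1a4* (-1.30 ± 0.26). The sterol exporters *Abcg5* (1.02 ± 0.14, adjusted p = 5.33e-04) and *Abcg8* (1.06 ± 0.13, adjusted p = 2.44e-04), which form a heterodimer, were higher by nearly the same factor.

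Enzymes of cholesterol synthesis were mostly low in MMI and no longer so with T3. Of 20, 15 were lower in MMI than in CT, a contrast in which 736 of 13925 genes over all were called either way. Over all genes in MMI+T3, 13.3% were higher than in CT and 12.3% lower. Of the 20, 6 were higher in MMI+T3, 1 was lower, 3 were level and 10 undetermined, with a median log2 difference of 0.49. This count depended on single libraries, since it was 13 higher without MMI+T3 replicate 2, 11 without CT replicate 1, 3 without MMI+T3 replicate 1 or MMI+T3 replicate 3, and 2 without CT replicate 2 or CT replicate 3. *Mvd*, mevalonate diphosphate decarboxylase, was 70.3, 52.4 and 55.5 CPM in CT, 40.3, 27.0 and 32.2 CPM in MMI and 126, 105 and 183 CPM in MMI+T3 (1.205 ± 0.19, adjusted p = 0.0012). *Hsd17b7*, a sterol reductase, was also above CT (0.82 ± 0.15, adjusted p = 0.00278). *Fdft1* and *Tm7sf2* were level, and *Hmgcs1* was undetermined (-0.41 to 0.63). The regulators *Srebf2*, *Scap*, *Insig1* and *Insig2* were level.

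Genes of fatty acid synthesis were mostly above CT. Of 24 genes, 14 were higher, 2 lower and 6 level, with a median log2 difference of 0.85. *Pnpla3*, a lipid droplet lipase, was close to absent without T3, at 0.792, 0.274 and 0.849 CPM in CT, 0.136, 0.644 and 0.315 CPM in MMI and 73.0, 79.3 and 121 CPM in MMI+T3 (7.11 ± 0.31, adjusted p = 1.89e-07). *Fasn*, fatty acid synthase, was 673, 812 and 615 CPM in the CT libraries and 1875, 2891 and 3075 CPM in the MMI+T3 libraries (1.89 ± 0.19, adjusted p = 5.09e-05). Both acetyl-CoA carboxylases, *Acacb* (1.38 ± 0.12, adjusted p = 2.92e-05) and *Acaca*, and *Elovl6*, an elongase (2.00 ± 0.24, adjusted p = 1.94e-04), were higher, as were the NADPH-producing *G6pdx* (2.32 ± 0.18) and *Pgd* (1.41 ± 0.15). Their partners were not all raised. *Acly*, ATP citrate lyase, was level (-0.08 to 0.41), *Scd1*, the stearoyl desaturase, was undetermined at 4761, 6911 and 4027 CPM in the CT libraries and 4791, 8668 and 6059 CPM in the MMI+T3 libraries (-0.21 to 0.82), *Srebf1* was level, and *Elovl5* was lower (-0.71 ± 0.13, adjusted p = 0.00331).

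Genes of fatty acid oxidation were mostly below CT. Of 22 genes of the mitochondrial pathway, 16 were lower, 4 level and 0 higher (median -0.70). With edgeR and an unadjusted p under 0.05 the higher ones were 0 as well, and with DESeq2 0. In the peroxisomal pathway 11 of 18 were lower (median -0.75), and of 7 ketone body genes 5 were lower. *Acadm*, medium-chain acyl-CoA dehydrogenase, was 415, 421 and 413 CPM in CT, 553, 549 and 423 CPM in MMI and 134, 119 and 136 CPM in MMI+T3 (-1.69 ± 0.09, adjusted p = 1.16e-06), so the MMI libraries were not below CT. *Acsl1*, which activates fatty acids, was 1296, 1343 and 1271 CPM in the CT libraries and 455, 489 and 384 CPM in the MMI+T3 libraries (-1.57 ± 0.11, adjusted p = 5.56e-06). *Cpt1a*, the entry step of the mitochondrion, was 269, 262 and 271 CPM in the CT libraries and 206, 162 and 134 CPM in the MMI+T3 libraries (-0.69 ± 0.14, adjusted p = 0.00479). No MMI+T3 library of these genes reached a CT library. In the peroxisome, *Crot*, a carnitine transferase (-2.04 ± 0.12, adjusted p = 1.47e-06), and *Ech1* (-1.86 ± 0.12, adjusted p = 3.02e-06) were low, and *Abcd2*, a transporter of long-chain acyl-CoA, was the exception (1.29 ± 0.24, adjusted p = 0.00327). Of the ketone body genes, *Acat1*, a thiolase, was lower (-0.87 ± 0.10, adjusted p = 1.58e-04).

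**Figure D4:**
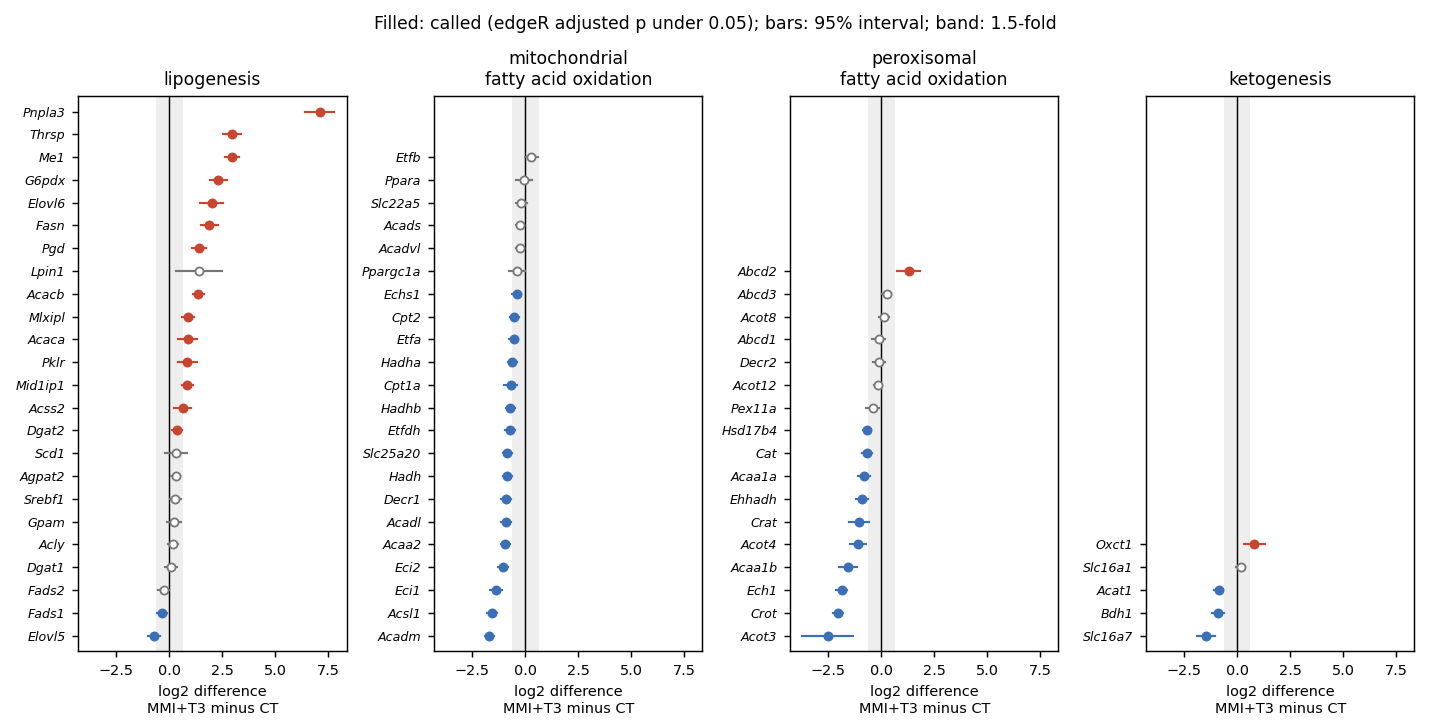
Log2 difference MMI+T3 minus CT with 95% intervals for tested genes of fatty acid synthesis, mitochondrial and peroxisomal oxidation and ketogenesis, filled where called, and the shaded band is 1.5-fold. Synthesis genes lie mostly to the right of zero and oxidation genes to the left.

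Many of these oxidation genes are targets of the fatty acid receptor PPARα. Of 21 genes of a list of lipid droplet genes and other PPARα targets, 10 were lower, 4 higher, 4 level and 3 undetermined (median -0.81). *Ppara* itself was level with CT at 57.3, 58.2 and 49.0 CPM in the CT libraries and 61.7, 60.8 and 37.0 CPM in the MMI+T3 libraries (95% interval -0.44 to 0.33). The ω-hydroxylases of the Cyp4a and Cyp4f families were lower at 8 of 9 genes. *Cyp4a10* was 366, 464 and 402 CPM in CT, 760.5, 801 and 569 CPM in MMI and 9.56, 9.72 and 29.0 CPM in MMI+T3 (-4.68 ± 0.39, adjusted p = 1.82e-05, and -5.43 without MMI+T3 replicate 3). *Acot1*, a cytosolic thioesterase, was 41.3, 45.9 and 42.3 CPM in CT, 58.7, 73.1 and 35.6 CPM in MMI and 0.366, 0.68 and 0.973 CPM in MMI+T3 (-5.99 ± 0.21, adjusted p = 5.56e-08). In both genes the MMI+T3 libraries lay below every CT library. *Angptl4*, an inhibitor of lipoprotein lipase, was 68.2, 70.4 and 132 CPM in the CT libraries and 7.58, 12.4 and 19.1 CPM in the MMI+T3 libraries (-2.79 ± 0.33, adjusted p = 1.87e-04). *Vnn1* (-2.05 ± 0.21), *Fabp1* (-1.59 ± 0.19), *Acot2* (-3.26 ± 0.30) and *Plin2* (-0.81 ± 0.11) were lower, and *G0s2*, which inhibits the lipase *Pnpla2*, was 68.2, 55.0 and 146 CPM in the CT libraries and 20.5, 14.2 and 13.8 CPM in the MMI+T3 libraries (-2.48 ± 0.33, adjusted p = 3.70e-04), while *Pnpla2* (0.57 ± 0.10) and *Mgll* (1.19 ± 0.17) were higher. *Fgf21*, a hormone of fasting, had 1, 0 and 3 counts in CT, too few for a fold, beside 18, 29 and 48 in MMI livers and 32, 26 and 82 after T3. Cyp4a and Acot copies share much sequence, so their single values are uncertain.

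In glucose metabolism, 14 of 30 genes were higher and 7 lower, and the higher ones were 8 without CT replicate 2 and 9 without CT replicate 3. Enzymes of glycolysis such as *Eno1* (0.88 ± 0.11, adjusted p = 2.65e-04) and *Tpi1* (0.56 ± 0.10) were above CT, and *Fbp1* of gluconeogenesis was below (-0.92 ± 0.14, adjusted p = 0.00105). *Pck1*, the regulated step of gluconeogenesis, was undetermined at 2007, 1065 and 3847 CPM in the CT libraries and 1046, 1745 and 1681 CPM in the MMI+T3 libraries (-1.46 to 0.18), and *G6pc* too (-0.47 to 1.27). The CT libraries of *Pck1* spread more widely than the MMI+T3 libraries. Around glycogen, *Ppp1r3c*, a glycogen targeting subunit, was 179, 123 and 165 CPM in CT, 288, 267 and 134 CPM in MMI and 13.3, 28.2 and 21.98 CPM in MMI+T3 (-2.89 ± 0.24, adjusted p = 1.89e-05), and *Gbe1*, the branching enzyme, was higher (1.02 ± 0.13, adjusted p = 2.34e-04). The insulin signalling genes *Irs2* (-1.85 ± 0.28, adjusted p = 8.44e-04) and *Insr* (-0.54 ± 0.10) were lower and *Irs1* was level.

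Urea cycle and amino acid genes were mainly level or low, with 2 of 35 higher, 14 lower and 16 level. *Oat*, ornithine aminotransferase, was 1149, 1146 and 1349.7 CPM in CT, 1177, 592 and 931 CPM in MMI and 122, 115 and 142 CPM in MMI+T3 (-3.28 ± 0.12, adjusted p = 7.11e-08). *Slc25a13*, the aspartate carrier citrin (-1.28 ± 0.10, adjusted p = 1.21e-05), and *Cth* of transsulfuration (-1.44 ± 0.14, adjusted p = 3.98e-05) were lower. *Prodh*, proline dehydrogenase, was higher, at 286, 298 and 272 CPM in the CT libraries and 592, 627 and 830.5 CPM in the MMI+T3 libraries (2.38-fold, adjusted p = 8.68e-05). Of the urea cycle, *Cps1* and *Arg1* were level, *Otc* was lower (-0.73 ± 0.14), and *Ass1* (-0.59 to -0.05) and *Asl* (-0.62 to 0.05) were undetermined.

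Genes of respiration and translation were mostly level with CT. Of 48 nuclear genes of the respiratory chain and ATP synthase, 44 were level, 2 higher, *Ndufa8* (0.50 ± 0.12) and *Cycs* (0.37 ± 0.12), and 1 lower, *Uqcrc2* (-0.33 ± 0.10). The last 2 calls were not kept in all fits that left out 1 library. Of 65 ribosomal protein genes, 61 were level. The median log2 differences were -0.04 and -0.05. Ribosome biogenesis genes were level at 14 of 26, with 8 higher, led by *Nop56* (0.72 ± 0.12) and *Rrp12* (0.79 ± 0.13), a number that fell to 3 without CT replicate 3 or MMI+T3 replicate 1, to 4 without MMI+T3 replicate 2 and to 5 without CT replicate 1 or CT replicate 2. Among mitochondrial carriers *Slc25a45* was 26.6, 30.8 and 32.7 CPM in the CT libraries and 109.7, 127 and 131 CPM in the MMI+T3 libraries (2.02 ± 0.11, adjusted p = 1.28e-06).

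Cytochrome P450 genes of families 1 to 3, which handle drugs and steroids, were lower at 20 of 42 and higher at 12. *Cyp2c23*, an epoxygenase, was 566, 706 and 658 CPM in CT, 589.9, 526 and 420.3 CPM in MMI and 39.4, 32.3 and 39.1 CPM in MMI+T3 (-4.13 ± 0.13, adjusted p = 3.02e-08). *Cyp3a11*, the main drug-metabolising form of the mouse, was 5447, 5221 and 5215 CPM in the CT libraries and 1361, 1548 and 1431 CPM in the MMI+T3 libraries (-1.88 ± 0.10, adjusted p = 9.35e-07). *Cyp2e1*, the ethanol-inducible form, was 4989, 5421 and 5177 CPM in the CT libraries and 1585, 1568 and 1381 CPM in the MMI+T3 libraries (-1.79 ± 0.10, adjusted p = 1.47e-06). For these the MMI means, 512, 4269 and 4747 CPM, were nearer CT than MMI+T3. The receptor gene *Nr1i3* (CAR) was lower as well (-1.23 ± 0.16, adjusted p = 2.81e-04). Higher were *Cyp2a5* (2.16 ± 0.16, adjusted p = 7.83e-06) and *Cyp1a1* (3.02 ± 0.26, adjusted p = 1.90e-05), both also high in MMI, with means of 3629.6 and 32.0 CPM against 564 and 2.20 CPM in CT.

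Glutathione transferases and other targets of the stress factor NRF2 were higher in many cases, with 16 of 33 above CT in MMI and 14 in MMI+T3. Over all genes, 736 of 13925 were called either way in MMI against CT, and 13.3% were higher in MMI+T3. *Nqo1*, a quinone reductase, was 8.66, 6.86 and 8.39 CPM in CT, 54.5, 98.3 and 58.0 CPM in MMI and 43.9, 44.8 and 54.3 CPM in MMI+T3 (2.57 ± 0.14, adjusted p = 8.56e-07). *Cbr1*, a carbonyl reductase, was 95.2, 83.9 and 92.6 CPM in CT, 386, 564 and 503 CPM in MMI and 451, 473 and 644 CPM in MMI+T3 (2.52 ± 0.15, adjusted p = 1.48e-06). *Srxn1*, sulfiredoxin (1.61 ± 0.10, adjusted p = 2.73e-06), and *Txnrd1*, thioredoxin reductase (0.81 ± 0.10, adjusted p = 2.88e-04), were above CT, with MMI means of 283 and 448 CPM between which and CT the MMI+T3 means of 164 and 343 CPM lay. Others differed. *Gclc*, of glutathione synthesis, had a log2 difference of -0.42 ± 0.13 (adjusted p = 0.0331), lost as a call without CT replicate 1, CT replicate 2, MMI+T3 replicate 1 or MMI+T3 replicate 3 (adjusted p up to 0.0886), *Gsta2* was level, and *Gstt1* was higher with MMI near CT, at 290.2, 313 and 298 CPM in CT, 303, 296 and 244 CPM in MMI and 876, 861 and 879 CPM in MMI+T3 (1.53 ± 0.09, adjusted p = 1.59e-06). MMI+T3 mice had had methimazole and perchlorate and CT mice had not, so a direct response to the drugs cannot be told apart from a lasting effect of hypothyroidism. Of the same list 8 genes were lower, 4 without CT replicate 2.

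Carboxylesterases were lower at 7 of 14 genes and higher at 2. *Ces1f*, a lipid hydrolase, was 628, 626 and 638 CPM in the CT libraries and 70.1, 72.8 and 70.5 CPM in the MMI+T3 libraries (-3.16 ± 0.09, adjusted p = 2.36e-08), and *Ces1e* (-2.08 ± 0.16, adjusted p = 1.21e-05) and *Ces1d* (-1.48 ± 0.18) were lower too. Among conjugating enzymes, 7 of 23 were higher and 7 lower. *Ugt2b37* was 1.26, 1.98 and 2.70 CPM in CT, 2.63, 1.37 and 2.36 CPM in MMI and 119.5, 114 and 42.7 CPM in MMI+T3 (5.53 ± 0.42, adjusted p = 1.01e-05), *Papss2*, which makes the sulfate donor, was 289, 291 and 232 CPM in CT, 149.8, 132 and 92.6 CPM in MMI and 869, 821 and 957 CPM in MMI+T3 (1.70 ± 0.12, adjusted p = 5.47e-06), and *Ugt3a1* was lower (-1.56 ± 0.14, adjusted p = 2.92e-05).

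Secreted proteins went several ways. Of 32 acute phase genes 16 were higher than in CT and 5 lower, the latter 2 without CT replicate 1 and 3 without CT replicate 2, CT replicate 3 or MMI+T3 replicate 2. *Saa2* was 29.2, 20.95 and 23.04 CPM in CT, 13.7, 24.9 and 16.95 CPM in MMI and 2487, 1555 and 2382 CPM in MMI+T3 (6.44 ± 0.23, adjusted p = 5.56e-08) and *Saa1* 43.6, 40.8 and 43.0 CPM in CT, 18.8, 33.3 and 25.8 CPM in MMI and 2035, 1300.5 and 2092 CPM in MMI+T3 (5.40 ± 0.19, adjusted p = 5.56e-08), near-identical copies of serum amyloid A. For both, each MMI+T3 library was above every other library. *Orm1*, orosomucoid, was 499, 609 and 652 CPM in the CT libraries and 1988, 1348 and 1887 CPM in the MMI+T3 libraries (1.56 ± 0.16, adjusted p = 6.35e-05). *Hpx*, hemopexin (1.31 ± 0.13, adjusted p = 4.37e-05), was higher also, and *Lcn2*, lipocalin 2, was 990.0, 95.2 and 167 CPM in the MMI+T3 libraries against 7.22, 2.96 and 4.15 CPM in CT (6.42 ± 0.88, adjusted p = 4.86e-04, and 4.75 without MMI+T3 replicate 1). In contrast *C3* was level (-0.31 to 0.50), *Fgb* was level (-0.49 to 0.13), *Crp* was lower (-0.79 ± 0.13, adjusted p = 0.00127) and *Stat3* was level. Macrophage markers were high in the same libraries, as given below, and their part in these values was not tested.

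Of 13 plasma carriers, 7 were lower and 3 higher. *Alb* was 24136, 25438 and 23486 CPM in the CT libraries and 13005, 11616 and 11852 CPM in the MMI+T3 libraries (-1.01 ± 0.11, adjusted p = 7.67e-05), and *Afm*, afamin (-1.46 ± 0.09, adjusted p = 2.07e-06), was lower as well, while *Serpina6*, the corticosteroid carrier, was higher (0.95 ± 0.09, adjusted p = 2.73e-05). Coagulation genes were level at 12 of 24 and lower at 10, 5 without CT replicate 2. Lower were *F11* (-0.86 ± 0.12, adjusted p = 4.33e-04), *Proc* (-0.73 ± 0.09) and *Klkb1* (-0.60 ± 0.11) among others. *Cpb2*, a fibrinolysis inhibitor, was the only one higher (0.68 ± 0.12, adjusted p = 0.00176). Of 25 complement genes 7 were higher, the C1q genes of macrophages among them, and 8 lower, 5 without CT replicate 2 or CT replicate 3. The lower ones included *C6*, *C8a* (-1.44 ± 0.24, adjusted p = 0.00149) and *C1s1* (-0.69 ± 0.10, adjusted p = 5.05e-04). Of 23 apolipoproteins and lipases 6 were higher, 8 lower and 6 level. *Apoa4* (1.81 ± 0.13, adjusted p = 6.32e-06) and *Lipg* (2.15 ± 0.22, adjusted p = 7.60e-05) were higher and *Lipc*, hepatic lipase (-1.01 ± 0.09, adjusted p = 2.92e-05), was lower.

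Markers of other liver cells were counted to see what else changed. Of 15 macrophage markers, 14 were higher than in CT and 0 lower, with edgeR, with DESeq2 and at an unadjusted p under 0.05. The median log2 difference was 1.44, none of them was at 0 in every library, and the summed level was 216 to 263 CPM in CT, 167 to 211 CPM in MMI and 428 to 830.4 CPM in MMI+T3. *Marco*, a scavenger receptor, was 2.24, 1.54 and 2.20 CPM in CT, 1.45, 2.36 and 2.00 CPM in MMI and 35.8, 27.9 and 9.78 CPM in MMI+T3 (3.60 ± 0.43, adjusted p = 1.97e-04). *Clec4f*, the defining Kupffer cell lectin, was 42.0, 35.3 and 38.4 CPM in CT, 22.9, 29.6 and 34.0 CPM in MMI and 82.1, 155 and 79.3 CPM in MMI+T3 (1.44 ± 0.23, adjusted p = 0.00119). The MMI libraries of both were near or below CT. *C1qb* (1.53 ± 0.18, adjusted p = 2.04e-04) and *Cd5l* (1.89 ± 0.25, adjusted p = 4.00e-04) were higher too, and *Mpeg1* was undetermined. Endothelial markers were higher at 7 of 14, such as *Cdh5* (0.89 ± 0.15, adjusted p = 0.00177), and level at 3, and the mean of *Cdh5* was 12.7 CPM in CT, 20.9 CPM in MMI and 23.6 CPM after T3. Stellate cell markers (1 of 14 called, 3 without CT replicate 1 or MMI+T3 replicate 2, 0 without CT replicate 2, CT replicate 3 or MMI+T3 replicate 1 and 0 with DESeq2), cholangiocyte markers (1 of 7 lower, and without CT replicate 1 also 2 higher), T cell markers (0 of 6) and neutrophil markers (0 of 2) gave few calls, many at low counts. At an unadjusted p under 0.05 edgeR gave 0 T cell and 1 neutrophil marker, and DESeq2 gave 0 of either. Of 6 red cell genes, *Alas2* was lower (-1.98 ± 0.21, adjusted p = 7.57e-05) and the others, the globin genes among them, were undetermined. Without MMI+T3 replicate 3, 4 of the 6 were lower, *Alas2* included. In whole liver, more cells of a type and more RNA per cell cannot be told apart. *Ighm*, the immunoglobulin μ chain, was 7.31, 8.23 and 6.85 CPM in CT, 4.13, 3.18 and 6.61 CPM in MMI and 325, 425 and 506 CPM in MMI+T3 (5.80 ± 0.19, adjusted p = 3.14e-08). Of 8 B cell genes 4 were higher and 4 undetermined (median 0.90), and the higher ones were 2 without CT replicate 1, CT replicate 2, MMI+T3 replicate 1 or MMI+T3 replicate 3. Besides *Ighm* these were the immunoglobulin genes *Igkc* (1.21 ± 0.25, adjusted p = 0.00575), *Ighd* (0.97 ± 0.31, adjusted p = 0.044) and *Jchain* (1.01 ± 0.30, adjusted p = 0.0317). The call of *Ighd* was lost without CT replicate 1, CT replicate 2, CT replicate 3, MMI+T3 replicate 1, MMI+T3 replicate 2 or MMI+T3 replicate 3 (adjusted p up to 0.147) and that of *Jchain* without CT replicate 1, CT replicate 2, MMI+T3 replicate 1 or MMI+T3 replicate 3 (adjusted p up to 0.12). *Cd79a*, of the B cell receptor, was undetermined at 1.16, 0.987 and 1.60 CPM in the CT libraries and 1.83, 2.48 and 1.60 CPM in the MMI+T3 libraries (-0.14 to 1.42).

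**Figure D5:**
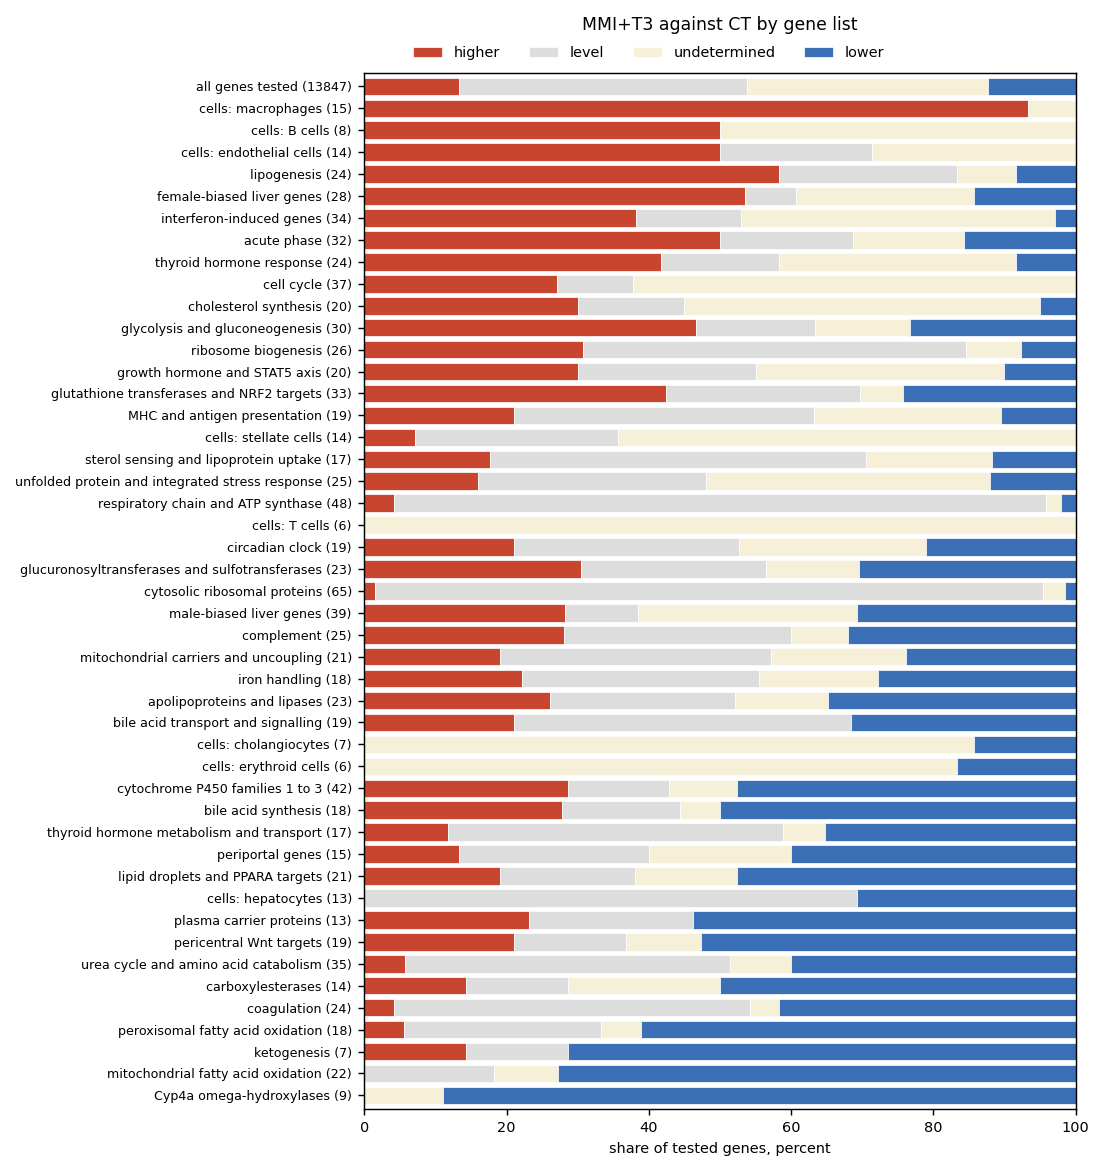
Share of the tested genes of each list that were higher, lower, level or undetermined in MMI+T3 against CT, with the number tested in brackets and all 13847 genes in the top bar. Respiratory chain and ribosomal protein genes are nearly all level, macrophage markers nearly all higher and fatty acid oxidation mostly lower.

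Zonation markers did not move as a block. Of pericentral genes under Wnt control, 10 of 19 were lower, with *Lhpp* (-2.22 ± 0.12, adjusted p = 8.56e-07), *Oat* and *Cyp2e1* foremost. *Glul*, the strict pericentral marker, was 947, 1142 and 984 CPM in CT, 575, 346 and 693 CPM in MMI and 1364, 1316 and 1461 CPM in MMI+T3 (0.42 ± 0.10, adjusted p = 0.0147), a call lost without CT replicate 1 or CT replicate 3 (adjusted p up to 0.0873), and *Tbx3*, *Lgr5* and *Rnf43* were level. Of the pericentral list 4 were higher, 2 without CT replicate 1 or CT replicate 3. Of 15 periportal genes 6 were lower, among them *Etnppl* (-3.14 ± 0.17, adjusted p = 9.61e-07) and *Hsd17b13* (-1.59 ± 0.14, adjusted p = 3.04e-05), and *Cyp2f2* was level.

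Clock genes bear on the hour of killing, which the labels do not state. *Arntl* was level with CT by the 1.5-fold range, at 39.4, 32.7 and 35.7 CPM in the CT libraries and 28.4, 31.3 and 27.6 CPM in the MMI+T3 libraries (-0.55 to -0.08). Every MMI+T3 library of *Arntl* nevertheless lay below every CT library. *Clock*, *Cry2*, *Nr1d2*, *Tef* and *Hlf* were level too. *Dbp*, with a high daily amplitude, was undetermined (0.931, 7.84 and 5.35 CPM in the CT libraries and 7.74, 6.12 and 4.67 CPM in the MMI+T3 libraries). *Nr1d1* (REV-ERBα) was 35.5, 100.3 and 116 CPM in the CT libraries and 9.77, 26.5 and 10.5 CPM in the MMI+T3 libraries (-2.43 ± 0.46, adjusted p = 0.0032, and -3.06 without MMI+T3 replicate 2), *Bhlhe40*, a clock repressor, was 53.4, 35.3 and 74.6 CPM in the CT libraries and 347, 254 and 308 CPM in the MMI+T3 libraries (2.46 ± 0.23, adjusted p = 3.75e-05) and *Nfil3* was lower (-1.34 ± 0.12, adjusted p = 2.33e-05). In all 4 of 19 were higher and 4 lower, beside 13.3% and 12.3% of all genes.

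Of 37 cell cycle genes 10 were higher, 6 without MMI+T3 replicate 2, and 23 undetermined. *Rrm2*, ribonucleotide reductase, was 2.096, 2.25 and 4.05 CPM in the CT libraries and 22.3, 30.4 and 32.0 CPM in the MMI+T3 libraries (3.32 ± 0.25, adjusted p = 7.83e-06) and *Mcm5*, of the replication helicase, had a log2 difference of 1.60 ± 0.37 (adjusted p = 0.00983). *Mki67* was 0.699, 1.92 and 2.40 CPM in the CT libraries and 4.65, 6.42 and 3.11 CPM in the MMI+T3 libraries (1.495 ± 0.42, adjusted p = 0.0252), lost as a call without CT replicate 2, MMI+T3 replicate 1 or MMI+T3 replicate 2 (adjusted p up to 0.0894), and *Pcna* was level. Interferon-induced genes were higher at 13 of 34, mostly GTPases and immunoproteasome genes such as *Gbp3* (2.74 ± 0.19, adjusted p = 5.93e-06), *Gbp2* (1.95 ± 0.24, adjusted p = 2.07e-04) and *Psmb8* (0.56 ± 0.09), while *Isg15* and *Ifit1* were undetermined. Chaperones of the endoplasmic reticulum, *Hspa5*, *Hsp90b1* and *Canx*, were level, and *Psat1* of serine synthesis was higher (4.47 ± 0.39, adjusted p = 2.00e-05). *Psat1* had only 3, 6 and 3 counts in CT, against 101, 89 and 89 in MMI+T3, so the size is uncertain. Of iron genes, *Slc40a1*, ferroportin, was higher (1.38 ± 0.13, adjusted p = 4.05e-05) and *Tfr2* was level.

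The largest differences included further genes. *Fndc5*, the precursor of irisin and a member of the list of thyroid hormone responsive genes, had 3, 7 and 2 counts in CT and 444, 358 and 578 in MMI+T3 (6.77 ± 0.35, adjusted p = 6.52e-07, and 7.49 without CT replicate 2). *Cep126*, a centrosomal gene, was 0.373, 0.165 and 0.4 CPM in the CT libraries and 41.7, 69.6 and 51.6 CPM in the MMI+T3 libraries (7.38 ± 0.30, adjusted p = 1.03e-07), and *Crybb3*, a crystallin, was 0.978, 0.439 and 0.5 CPM in the CT libraries and 66.2, 63.9 and 65.9 CPM in the MMI+T3 libraries (6.62 ± 0.20, adjusted p = 2.36e-08). All were also low in MMI, with mean levels of 0.188, 0.324 and 0.304 CPM. At the other end *Abca8a*, a lipid transporter, was 152, 141 and 135 CPM in the CT libraries and 7.06, 9.67 and 5.30 CPM in the MMI+T3 libraries (-4.29 ± 0.19, adjusted p = 1.89e-07) and *Olig1*, a transcription factor better known in oligodendrocytes, was 12.3, 18.9 and 23.6 CPM in the CT libraries and 0.418, 1.55 and 0.632 CPM in the MMI+T3 libraries (-4.38 ± 0.39, adjusted p = 2.55e-05, and -5.10 without MMI+T3 replicate 2). *Hectd2os* was lower too (-5.75 ± 0.14), but it lies antisense to another gene and the strand setting of the counting is not known.

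Genes listed in the MMI and MMI+T3 table alone could not be tested against CT. There were 604, none with more than 9 MMI counts in total. The most abundant with T3 was *Wfdc16*, with 321, 421 and 481 counts in the MMI+T3 libraries and 0, 1 and 1 in MMI. *Pnpla5*, a lipase related to *Pnpla3*, had 194, 293 and 319 counts with T3 and 0 in each MMI library. *A1bg*, a gene with a female bias in mouse liver, had 149, 57 and 102 counts with T3 and 0, 1 and 0 in MMI. The 323 genes listed for CT alone had at most 42 counts over the 3 CT libraries.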

How the data were processed

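Liver RNA of 3 CT, 3 MMI and 3 MMI+T3 libraries was analysed. The deposited values are raw read counts per gene, made by the authors. HISAT2 2.1.0, HTSeq 0.6.1p1 and GRCm38 are listed in the submitters' processing notes, while the study's methods name STAR, so the aligner is not settled, nor is the strand setting of the counting. One table holds CT and the other MMI and MMI+T3, each without the genes of lowest counts, so only the 17154 genes in both were compared. Of 18081 gene IDs 18078 were found in GENCODE M21, and 42 symbol entries over both tables that a spreadsheet had turned into dates were restored from it. Counts of near-identical copies (Mup, Cyp, Acot, Saa) are uncertain.

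Counts were fitted with edgeR 4.0.16 in R 4.3.3 (TMM, filterByExpr with a minimum count of 10, quasi-likelihood test, two-sided, Benjamini-Hochberg over all genes tested), MMI+T3 against CT being fitted on its 6 libraries. A gene was called at an adjusted p under 0.05 and was level where it was not called and its 95% interval lay within 1.5-fold. The scripts were tested on simulated data, in which false calls were somewhat more frequent than the threshold of 0.05 implies. DESeq2 1.42.0, other scalings and filters, all 9 libraries in 1 fit, a replicate block and fits without 1 library were alternatives. Lists are described by counts and medians, with no set test. Their counts in MMI+T3 against CT are to be read beside the 13.3% higher, 12.3% lower and 40.5% level among all genes. Counts in MMI against CT are to be read beside 736 of 13925 genes called either way.

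Genes in full are the 3 called members of each list with the smallest adjusted p, a preset list of well-known genes, and the 10 largest in each direction for each outcome and for MMI+T3 against CT, among genes of at least 5 CPM and without predicted genes. Others were picked from the lists after their values were seen, as was the choice among the rule's genes. Members and lists were chosen with earlier results of these data known. A few genes counted in the lists are not reported here by name or drawn.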

Additional observations from a re-analysis of the deposited data

How the results depend on the processing

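With 1 library left out, 1242 to 1707 genes were higher, 1137 to 1533 lower and 5186 to 5543 level. The fit of all 9 libraries gave 1565 higher and 1251 lower, and the DESeq2 test 1855 and 1792. Level genes numbered 1513 with the narrower margin tried and 7694 with a margin of 2-fold. Other scalings moved the median log2 difference of all genes by at most 0.0075. Of all 3548 calls, 2029 were kept without each library in turn, 2430 in the other settings and 1828 in all of them. Of 189 named genes that were called, 179 were called without each library in turn, 182 in the other settings that tested them, and none turned in direction. In the fit of all 9 libraries the lower genes were 5 instead of 10 in the coagulation list, 3 instead of 7 among conjugating enzymes, and 5 instead of 8 among both apolipoproteins and glutathione transferases. The cause of these changes was not tested.

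The labels do not say whether replicate numbers mark pairs. Deviations of same-numbered CT and MMI+T3 libraries correlated at 0.12, 0.15 and -0.03, and those of other pairs at -0.22 to 0.10. CT replicate 1 and CT replicate 2 each correlated best with their own number. Values this small, from 3 libraries in each group, cannot decide whether the libraries were paired. With a replicate block 1958 genes were higher, 1801 lower and 5661 level, and 188 of the 189 named calls stood. CT replicate 3 correlated better with MMI+T3 replicate 2 (0.10) than with its own number. The separate CT table and the drugs given to MMI+T3 mice remain joined to the group in every setting.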
